A study of Drosophila melanogaster with 6 samples.

Results

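The miRNAs of mei-p26 mutant ovaries were compared with those of w1118 control ovaries in *Drosophila melanogaster*. Ovaries came from 7-day-old adults kept at 25 degrees. The comparison rested on 4 small RNA libraries of a series of 6, namely w1118 replicates 1 and 2, labelled wild type, and mei-p26 replicates 1 and 2, which carried a mei-p26 mutation in the w1118 strain background. The other 2 libraries, from wh7 flies, mutant for the germline gene wuho, were not compared here. They entered the filter on low counts, the scaling of libraries and the estimate of the spread between replicates. All rows of the deposited table were members, 474 rows of 474, each a mature miRNA from 1 precursor. Of these, 150 rows with 143 mature names passed the filter on low counts and were tested, 119 had at least 1 count in the 4 libraries but were too rare to test, and 205 had none in them. The labels give neither the mei-p26 allele nor the number of animals behind a library, and they do not say whether the duplicates came from separate flies. Each p-value is thus set against the variation among libraries, part or all of which may be technical.

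A miRNA is cut from a hairpin precursor that can release a mature strand from each of its arms, 5p and 3p. Mature strands guide Argonaute proteins to messenger RNAs through their seed, a short run near the start of the miRNA, so miRNAs with one seed share many targets. Precursors that lie close together are often made from 1 primary transcript, a genomic cluster. The protein mei-P26 is a TRIM-NHL protein of the germline that binds Argonaute 1 and is known to restrain the miRNA pathway as germline stem cell daughters differentiate, and loss of its gene is known to give ovarian tumours of undifferentiated germ cells. A whole ovary holds germline and somatic follicle cells of all stages, together with its muscle sheath. In such bulk samples, fewer cells of a type and less of a miRNA per cell cannot be told apart.

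The w1118 libraries held 152848 and 144175 counts, and the mei-p26 libraries were deeper, with 229276 and 249262. Where a library has 0 counts of a miRNA, its count allows a level of up to 3 counts, at most 22.4 CPM (counts scaled to a common library total, here after TMM scaling). This limit and the intervals below cover counting error only. Between 192 and 224 rows had a count in a library, fewer in w1118 (199 and 192) than in mei-p26 (220 and 224). The replicates correlated with r = 0.968 in w1118 and r = 0.975 in mei-p26 on log2 CPM across miRNAs, which are not independent. Both groups held miRNAs known from the fly ovary at high levels, such as miR-989-3p, a follicle cell miRNA needed for border cell migration, at 16.2% and 13.4% of counts in w1118 and 14.5% and 12.5% in mei-p26. The mutated gene encodes a messenger RNA, which miRNA libraries do not measure, so the genotype was not checked here. Levels below are CPM after TMM scaling in each library, differences are log2 fold changes of mei-p26 over w1118 ± an approximate SE, and calls are made at an adjusted p under 0.05 by the quasi-likelihood test of edgeR with Benjamini-Hochberg adjustment over the 150 rows.

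Of the 150 rows, 51 passed the test, or 34%. In mei-p26 32 rows were higher (21.3%) and 19 were lower (12.7%), which stand for 31 and 18 mature miRNAs, since miR-983-5p and miR-281-3p each have 2 rows. Some of these rows passed the filter on low counts only through the group where they were high. Such rows could be called in 1 direction only, and more of them were among the higher rows than among the lower. The split and both shares were thus partly set by the filter. Of the 51 calls, 42 were larger than 1 on the log2 scale. In 54 rows (36%) both mei-p26 libraries lay above both w1118 libraries, in 44 rows (29.3%) both lay below, and 50 of the 51 called rows were among these. The median log2 fold change over all rows was 0.08. It depends on how libraries are scaled and was 0.35 with total-count scaling, -0.14 with upper-quartile scaling and -0.01 with RLE scaling, and the split of calls moved with it, to 36 higher and 14 lower with total-count scaling and 22 and 25 with upper-quartile scaling. Small differences are best read against these shifts. Where a call is said below to be missed without certain libraries, these need not be all its misses. Changes of scaling, filter or tool could undo it too. The split was 27 higher and 32 lower without w1118 replicate 2 and 20 and 14 without wh7 replicate 1.

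**Figure D1:**
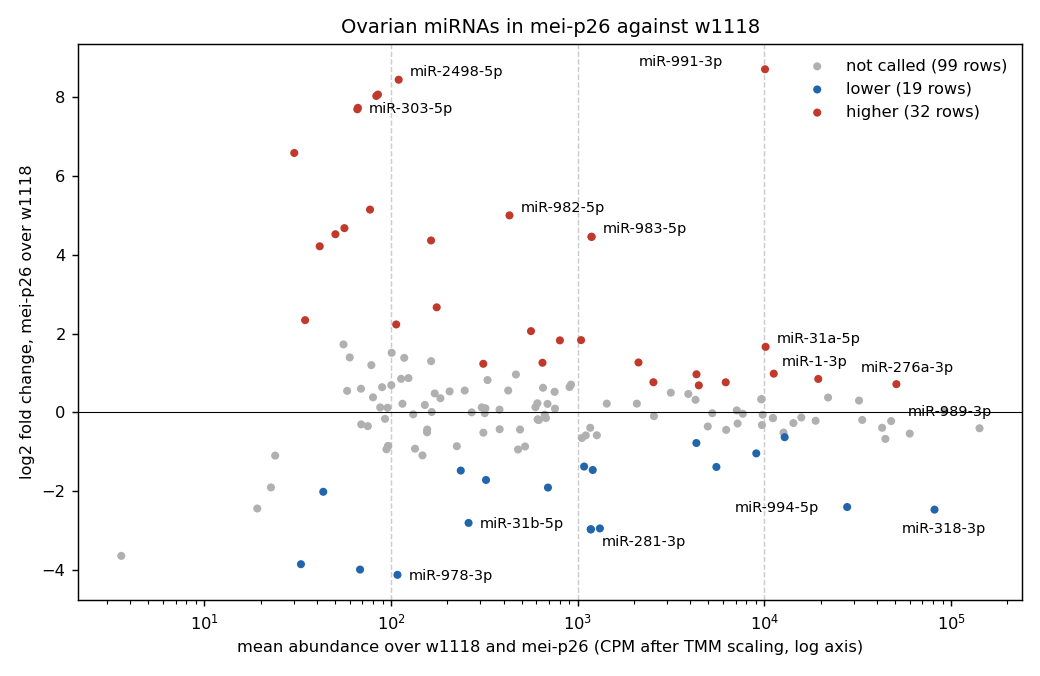
Each point is 1 of the 150 tested rows, with its mean abundance over w1118 and mei-p26 (CPM after TMM scaling, log axis) on the horizontal axis and its log2 fold change of mei-p26 over w1118 on the vertical axis. Colours mark the 32 rows called higher and the 19 called lower at an adjusted p under 0.05, and dashed lines mark the limits of the abundance classes; miR-991-3p stands at 8.70 among the abundant miRNAs, and miR-318-3p at -2.46.

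Calls were spread over all abundance classes. Among the 23 rows with a mean of at least 10000 CPM, 5 were higher and 3 lower (34.8%, beside 34% of all rows). Among the 36 rows of 1000 to 10000 CPM, 8 were higher and 8 lower (44.4%). Of the 59 rows of 100 to 1000 CPM 9 were higher and 5 lower (23.7%). Of the 32 rows under 100 CPM 10 were higher and 3 lower (40.6%). Most of these 10 rises, and some of the 9, passed the filter on low counts only through mei-p26. They could thus not have been called lower, and both shares were partly set by the filter. The 5 abundant rows that rose were miR-991-3p, miR-31a-5p, miR-316-5p, miR-1-3p and miR-276a-3p, and the 3 that fell were miR-318-3p, miR-994-5p and miR-7-5p. Classes are set by the mean over both groups, so a change can itself move a row between them. miR-991-3p, miR-31a-5p and miR-316-5p were under 10000 CPM in both w1118 libraries and entered the top class through mei-p26. miR-282-5p, with a w1118 mean above 10000 CPM, was left out of it by its fall. Rows of the most abundant class made up 84.8% and 83.5% of counts in w1118 and 81.6% and 80.3% in mei-p26.

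The make-up of the libraries differed mainly in a few of these abundant miRNAs. By the mean of each group, miR-989-3p ranked first in both. miR-318-3p, second in w1118, took 11.8% and 13.6% of counts in w1118 and 3.24% and 2.25% in mei-p26, where it ranked 10. miR-994-5p moved from rank 8 to rank 26. miR-276a-3p, which is known from studies of fly memory and circadian rhythm, took 2.67% and 4.49% of counts in w1118 and 5.45% and 8.71% in mei-p26 and moved from rank 9 to rank 3. miR-991-3p moved from rank 127 to rank 13 and miR-31a-5p from rank 35 to rank 15. Each of the 10 most abundant rows of w1118 except miR-318-3p, miR-994-5p and miR-276a-3p stayed below the threshold of the test. Their values were a log2 fold change of -0.40 ± 0.24 for miR-989-3p (adjusted p = 0.192), 0.05 ± 0.24 for miR-14-3p, a regulator of cell survival and fat metabolism whose sign turned with scaling, -0.54 ± 0.23 for miR-8-3p, the fly member of the miR-200 family, -0.67 ± 0.27 for miR-9c-5p, -0.22 ± 0.23 for bantam-3p, -0.39 ± 0.25 for miR-9b-5p and -0.19 ± 0.23 for miR-306-5p. The signs of bantam-3p and miR-306-5p turned with total-count scaling, to 0.0546 and 0.0684. Some of these rows were not stable below the threshold. miR-9c-5p was without a call in 12 of 18 alternatives, miR-8-3p in 15, and miR-989-3p and miR-9b-5p in 17 each. Each was called lower in the rest.

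**Figure D2:**
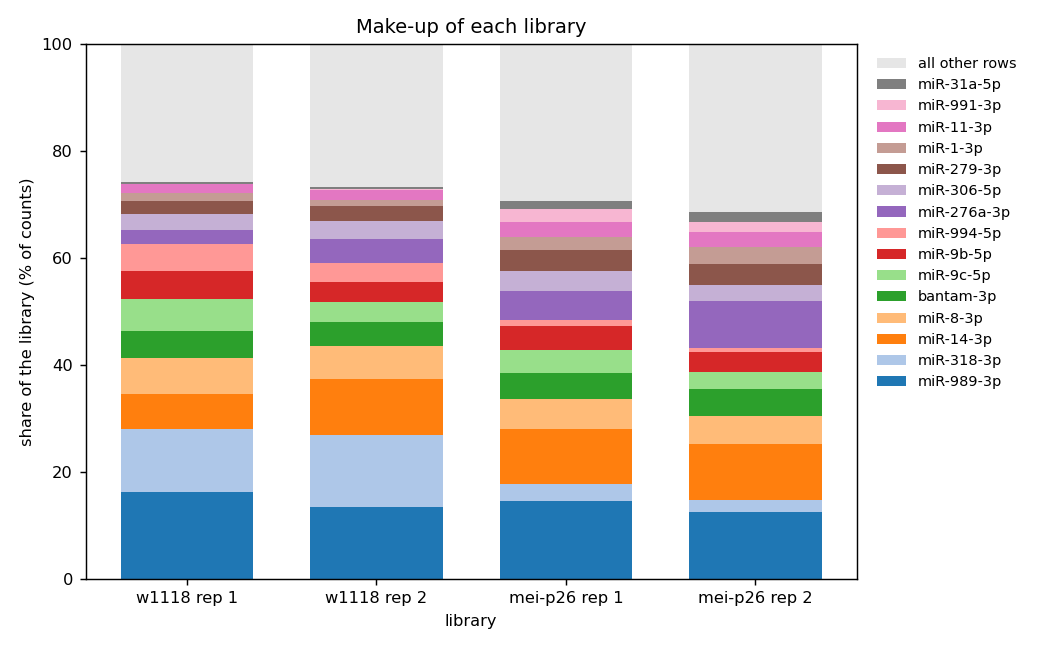
Stacked bars give the share of each library, in percent of its counts, taken by 15 abundant miRNAs and by all other rows in w1118 and mei-p26 replicates 1 and 2. miR-318-3p and miR-994-5p take smaller shares in mei-p26, miR-276a-3p, miR-991-3p and miR-31a-5p take larger ones, and miR-989-3p leads in 3 of the 4 libraries, with miR-318-3p ahead of it in w1118 replicate 2.

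By position in the genome, 77 of the 254 precursors found in the reference annotation had a neighbour on the same strand less than 10 kb away, which gave 22 clusters. A tested row was present in 19 of them, and 11 of these held at least 1 call. In 6 of these 11 a single row was called, and in the other 5, with more than 1 called row, the calls went in 1 direction. In 5 clusters at least 2 mature miRNAs passed. Of these 5, 2 had higher rows (mir-310 to mir-992 and mir-982 to mir-984) and 3 had lower rows (mir-994 to mir-318, mir-281-2 to mir-281-1 and mir-972 to mir-979). In the last, only the arms of mir-978 were tested, so the fall is that of 1 hairpin and not of the cluster.

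The cluster from mir-310 to mir-992 rose. It joins the miR-310s to mir-2498, mir-991 and mir-992. The miR-310s are made in the ovary and early embryo and are known to act on Hedgehog signalling in the fly ovary. miR-991 and miR-992 are counted here among the testis markers. In all, 10 of its 11 tested rows were higher in mei-p26 (90.9%, against 21.3% of all rows). The median log2 fold change was 2.06, which is also the median with rows of 0 counts at their lower bound. The tested arms of mir-2498 and mir-992, and miR-991-5p, passed the filter on low counts only through mei-p26. They could thus not have been called lower, and the share of 90.9% and the median were partly set by the filter. Summed over its mature miRNAs, the cluster stood at 7373 and 9976 CPM in w1118 and 45588 and 30667 CPM in mei-p26, or 0.646% and 0.965% of counts in w1118 and 4.85% and 3.55% in mei-p26. Both mutant libraries were above both controls, and most of the mutant sum came from 1 miRNA.

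That miRNA was miR-991-3p, at 67.2 and 28.7 CPM in w1118 and 24023 and 16154 CPM in mei-p26. In counts these are 9, 4, 5856 and 4657, so that a miRNA with few counts in the control ranked 13 in the mutant ovary. Its log2 fold change was 8.70 ± 0.40 (416-fold, adjusted p = 3.99e-13, edgeR), and the call held under all 18 alternatives. The 5p arm of the same hairpin had 0 and 0 counts in w1118 and 44 and 24 in mei-p26. The hairpins on either side of it, mir-2498 and mir-992, had 0 control counts on their tested arms as well. miR-2498-5p had 0 and 0 counts in w1118 and 36 and 84 in mei-p26, miR-992-3p 0 and 0 counts in w1118 and 44 and 46 in mei-p26 and miR-992-5p 0 and 0 counts in w1118 and 55 and 31 in mei-p26. With 3 counts over both w1118 libraries as the floor, the mutant level was at least 20.5-fold higher for miR-2498-5p. The same bound was at least 11.6-fold for miR-991-5p, at least 14.7-fold for miR-992-5p and at least 15.4-fold for miR-992-3p. All 4 passed whichever library was left out, and DESeq2 did not call miR-991-5p (adjusted p = 0.290) or miR-992-5p (adjusted p = 0.272).

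At the other end of the cluster, the miR-310s were present in the control and differed less. miR-310-3p was at 1023 and 1456 CPM in w1118 and 3819 and 2158 CPM in mei-p26 (log2 fold change 1.27 ± 0.32, adjusted p = 0.00316). miR-311-3p was at 2054 and 3794 CPM in w1118 and 6486 and 4957 CPM in mei-p26 (log2 fold change 0.97 ± 0.29, adjusted p = 0.0125) and miR-312-3p at 3317 and 3499.7 CPM in w1118 and 6715 and 4263 CPM in mei-p26 (log2 fold change 0.69 ± 0.26, adjusted p = 0.0487). In these 3 the mutant libraries lay above the controls, and in all of them mei-p26 replicate 1 was the higher. The rarer 5p arms passed as well, miR-311-5p at 246 and 186 CPM in w1118 and 1157 and 656 CPM in mei-p26 (log2 fold change 2.06 ± 0.41, adjusted p = 0.000387) and miR-312-5p at 351 and 559 CPM in w1118 and 1862 and 1391 CPM in mei-p26 (log2 fold change 1.83 ± 0.34, adjusted p = 0.000238). miR-313-3p, the row of the cluster that did not pass, was at 254 and 430.3 CPM in w1118 and 660.5 and 350.3 CPM in mei-p26, so its groups overlapped (log2 fold change 0.56 ± 0.42, adjusted p = 0.321). The calls of both 5p arms held under all 18 alternatives. That of miR-310-3p was retained in 16 of 18 alternatives but missed without mei-p26 replicate 1 or wh7 replicate 1, where the adjusted p reached 0.0689. That of miR-311-3p was retained in 15 of 18 alternatives but missed without wh7 replicate 1 or w1118 replicate 1, where the adjusted p reached 0.245. miR-312-3p lay nearest the threshold, and its call was retained in 4 of 18 alternatives but missed without mei-p26 replicate 1, wh7 replicate 1, wh7 replicate 2, w1118 replicate 1 or w1118 replicate 2, where the adjusted p reached 0.424.

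**Figure D3:**
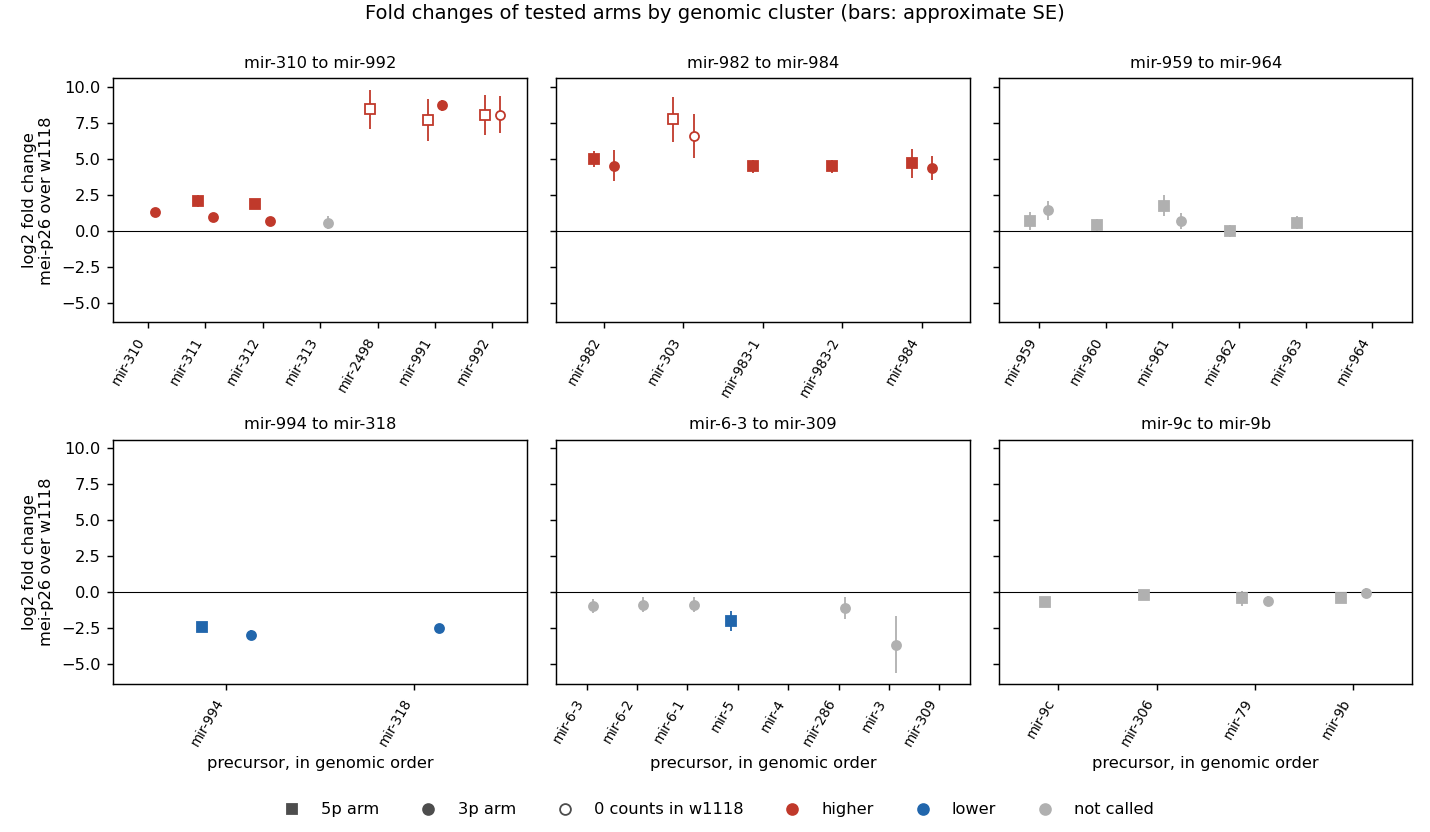
Log2 fold changes of mei-p26 over w1118 are plotted for the tested arms of 6 genomic clusters, with precursors in genomic order on the horizontal axis, squares for 5p arms, circles for 3p arms, open symbols for rows without a count in w1118 and bars for the approximate SE. In the cluster from mir-310 to mir-992 all 11 tested arms lie above 0 and those from mir-2498 on lie highest, while all 3 tested arms of mir-994 and mir-318 lie below 0; for open symbols the fitted value depends on the prior count and is no bound.

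The cluster from mir-982 to mir-984 rose as a whole. Its hairpins, mir-982, mir-303, both mir-983 copies and mir-984, lie together on the X chromosome and are known as testis-enriched. All 8 tested rows were higher in mei-p26 (100%, against 21.3% of all rows). The median log2 fold change was 4.60, or 4.45 with rows of 0 counts at their lower bound. Apart from those of miR-983-5p, these rows passed the filter on low counts only through mei-p26. They could thus not have been called lower, and the share of 100% was partly set by the filter. Summed over mature miRNAs the cluster stood at 202 and 108 CPM in w1118 and 3228 and 4513 CPM in mei-p26. miR-983-5p was at 149 and 57.4 CPM in w1118 and 1919.8 and 2612 CPM in mei-p26 (log2 fold change 4.45 ± 0.43, adjusted p = 8.49e-08), a 21.9-fold difference. Its 2 rows hold the same counts, so reads that fit both copies were counted on each or divided evenly. miR-982-5p was at 14.9 and 35.9 CPM in w1118 and 804 and 867 CPM in mei-p26 (31.9-fold, adjusted p = 3.85e-07).

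The remaining arms of this cluster had 0 to 4 counts in a control library. miR-984-3p had 4 and 0 counts in w1118 and 39 and 134 in mei-p26 (adjusted p = 0.000342), miR-984-5p 0 and 1 counts in w1118 and 26 and 32 in mei-p26 and miR-982-3p 0 and 1 counts in w1118 and 16 and 37 in mei-p26. With 1 control count each, miR-984-5p had a ratio of 29.8 (95% counting interval 5.14 to 1197) and miR-982-3p of 27.2 (95% counting interval 4.68 to 1095). For miR-303 the control libraries had 0 counts. Its 5p arm had 14 and 60 counts in mei-p26 and was at least 12.7-fold higher, and its 3p arm had 16 in each and was at least 5.48-fold higher. In all of these rows both mutant libraries lay above both controls. miR-303-5p did not reach the filter without mei-p26 replicate 2 and miR-303-3p without mei-p26 replicate 1, while the other 6 rows passed whichever library was left out. DESeq2 did not call miR-984-3p (adjusted p = 0.0588).

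In the clusters of mir-959 to mir-964 and mir-972 to mir-979, also testis-enriched, 0 rows were called higher. From mir-959 to mir-964, 0 of 7 tested rows passed with edgeR, 2 of them at an unadjusted p under 0.05 (miR-959-3p and miR-961-5p), and 0 with DESeq2 or limma-voom. With total-count scaling, and without mei-p26 replicate 1, 1 row passed. The cluster summed to 1098 and 825 CPM in w1118 and 1038 and 1429 CPM in mei-p26, with overlapping groups, and its median log2 fold change was 0.64. miR-962-5p, its most abundant row, was at 388 and 251 CPM in w1118 and 283 and 347 CPM in mei-p26 (log2 fold change -0.02 ± 0.41, adjusted p = 0.978), a value whose sign depended on the scaling. miR-963-5p was at 164 and 172 CPM in w1118 and 209 and 278 CPM in mei-p26 (log2 fold change 0.53 ± 0.45, adjusted p = 0.365), with both mutant libraries above the controls. From mir-972 to mir-979, miR-978 fell. miR-978-3p had 30 and 26 counts in w1118 and 2 and 4 in mei-p26 (log2 fold change -4.12 ± 0.72, adjusted p = 0.000144) and miR-978-5p 9 and 8 counts in w1118 and 0 and 2 in mei-p26, a ratio of w1118 over mei-p26 of 16.5 (95% counting interval 3.93 to 148). DESeq2 did not call miR-978-5p (adjusted p = 0.0597), and it did not reach the filter without w1118 replicate 1, w1118 replicate 2, wh7 replicate 2, mei-p26 replicate 1 or mei-p26 replicate 2. Of the 16 rows of miR-972 to miR-979, 7 had 0 counts in all 4 libraries and the untested rows had at most 8 counts in any of them. Untested rows went both ways. For example, miR-977-3p had 1 and 0 counts in w1118 and 4 and 3 in mei-p26, and miR-979-5p had 1 and 2 in w1118 and 0 and 0 in mei-p26. Over these 3 testis-enriched clusters 8 of 17 tested rows were higher, 2 lower and 7 did not pass. Of all rows 21.3% were higher and 12.7% lower. All 8 rises came from the cluster of mir-982 to mir-984 and both falls from miR-978. Most of these called rows passed the filter on low counts only through the group where they were high. miR-991 and miR-992, of the cluster from mir-310 to mir-992, were also chosen as testis markers. Their tested arms rose too and are not in this count. The part of any of these miRNAs in the other results was not tested.

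The pair of mir-994 and mir-318 fell. Both are known from the follicle cells of later egg chambers, and together they held 17.1% and 17.3% of counts in w1118 and 4.40% and 3.11% in mei-p26. All 3 tested rows were lower in mei-p26 (100%, against 12.7% of all rows), with a median of -2.46. miR-318-3p was at 135052 and 140684 CPM in w1118 and 30508 and 19480.5 CPM in mei-p26 (log2 fold change -2.46 ± 0.26, adjusted p = 1.68e-07), 5.52-fold lower. miR-994-5p was at 57673 and 35528 CPM in w1118 and 10494 and 7198 CPM in mei-p26 (log2 fold change -2.40 ± 0.27, adjusted p = 5.32e-07), and its rarer 3p arm at 2450.1 and 2194 CPM in w1118 and 406 and 201 CPM in mei-p26 (log2 fold change -2.94 ± 0.35, adjusted p = 8.67e-07). The groups were far apart in each, and in each mei-p26 replicate 2 was the lower. These calls held under all 18 alternatives.

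Other follicle cell miRNAs did not pass. miR-989-3p was at 184770.0 and 138145 CPM in w1118 and 136141 and 108437 CPM in mei-p26, with both mutant libraries below the controls by a small margin. Of its 5p arm, miR-989-5p, there were 2 and 11 counts in w1118 and 29 and 29 in mei-p26 (log2 fold change 1.20 ± 0.65, adjusted p = 0.156). miR-279-3p, which restrains JAK/STAT signalling as border cells form, was at 27795 and 29704 CPM in w1118 and 36481 and 34379 CPM in mei-p26 (log2 fold change 0.30 ± 0.22, adjusted p = 0.297). Its neighbour and seed partner miR-996-3p was at 16344 and 14874 CPM in w1118 and 13299 and 12619 CPM in mei-p26 (log2 fold change -0.27 ± 0.22, adjusted p = 0.358). In the list of later-stage follicle cell miRNAs (miR-279, miR-318, miR-989, miR-994 and miR-996), 3 of 8 tested rows were therefore lower and 0 higher, with a median log2 fold change of -0.33 beside 0.08. Of all rows 12.7% were lower and 21.3% higher, and the 3 calls are the rows of mir-994 and mir-318 described above. The list summed to 424822 and 361924 CPM in w1118 and 228499 and 183670.0 CPM in mei-p26. Without mir-994 and mir-318 the sum was 229640.0 and 183519 CPM in w1118 and 187091 and 156791 CPM in mei-p26, and the groups overlapped.

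miR-281 fell. miR-281-3p, an abundant miRNA of the gut and Malpighian tubule, was at 1912 and 2252 CPM in w1118 and 229.7 and 302 CPM in mei-p26 on each of its 2 rows, which hold the same counts (log2 fold change -2.96 ± 0.30, adjusted p = 1.44e-07). miR-281-2-5p, specific to 1 copy, had 22 and 13 counts in w1118 and 2 and 2 in mei-p26 (log2 fold change -3.98 ± 0.73, adjusted p = 0.000211), and miR-281-1-5p had 5 and 1 counts in w1118 and 0 in mei-p26. All 3 tested rows fell (12.7% of all rows did) and passed whichever library was left out. The marker list of gut and Malpighian tubule thus ran from 2114 to 2352 CPM in w1118 and from 238 to 309 CPM in mei-p26, and its part in the other results was not tested.

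The remaining clusters held 1 call or none. From mir-9c to mir-9b, a cluster of 4 hairpins that took 14.5% and 11.2% of counts in w1118 and 12.8% and 10.2% in mei-p26, 0 of 6 rows passed with edgeR, DESeq2 or limma-voom, 1 was at an unadjusted p under 0.05, and all 6 had negative values, from -0.67 for miR-9c-5p to -0.06 for miR-9b-3p. In it 2 rows passed with upper-quartile scaling and 3 without w1118 replicate 2. miR-9c-5p itself was at 69916 and 39207 CPM in w1118 and 40231 and 28336 CPM in mei-p26, with overlapping groups. In the let-7 complex, whose miRNAs time the larval to adult transition, miR-125-5p passed at 1419 and 2345 CPM in w1118 and 2839 and 3562 CPM in mei-p26 (log2 fold change 0.77 ± 0.29, adjusted p = 0.0440), while let-7-5p was at 10383 and 11123 CPM in w1118 and 8582 and 8658 CPM in mei-p26 (log2 fold change -0.32 ± 0.23, adjusted p = 0.290) and miR-100-5p at 366 and 251 CPM in w1118 and 316 and 347 CPM in mei-p26 (log2 fold change 0.11 ± 0.40, adjusted p = 0.872). The call of miR-125-5p was retained in 7 of 18 alternatives but missed without mei-p26 replicate 2, wh7 replicate 1, wh7 replicate 2 or w1118 replicate 1, where the adjusted p reached 0.427. From mir-317 to mir-34, all 6 rows had positive values and 1 passed, miR-34-5p, a maternally supplied miRNA linked to ageing, at 3892 and 5299.8 CPM in w1118 and 7318 and 8290.3 CPM in mei-p26 (log2 fold change 0.76 ± 0.25, adjusted p = 0.0205). Its call was retained in 10 of 18 alternatives but missed without mei-p26 replicate 2, wh7 replicate 1, wh7 replicate 2, w1118 replicate 1 or w1118 replicate 2, where the adjusted p reached 0.266.

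In the cluster of mir-283, mir-304 and mir-12, miR-304-5p fell, at 6738 and 4159 CPM in w1118 and 3015 and 3351 CPM in mei-p26 (log2 fold change -0.78 ± 0.27, adjusted p = 0.0362), while miR-12-5p (-0.21 ± 0.23) and miR-283-5p (-0.02 ± 0.23) did not pass. The call of miR-304-5p was retained in 11 of 18 alternatives but missed without mei-p26 replicate 1, mei-p26 replicate 2, wh7 replicate 1, wh7 replicate 2 or w1118 replicate 1, where the adjusted p reached 0.435. The embryonic miR-309 cluster was rare in both groups, at 224 and 273 CPM summed in w1118 and 119 and 97.1 CPM in mei-p26. Of its 6 tested rows 1 was lower, miR-5-5p, with 13 and 6 counts in w1118 and 3 and 6 in mei-p26 (adjusted p = 0.0338), a call retained in 10 of 16 alternatives but missed without mei-p26 replicate 1, mei-p26 replicate 2, wh7 replicate 1 or w1118 replicate 1, where the adjusted p reached 0.274. miR-6-3p had 11 and 23 counts in w1118 and 21 and 15 in mei-p26 on its first row, with overlapping groups. miR-286-3p had 3 and 6 counts in w1118 and 4 and 4 in mei-p26. miR-3-3p had 0 and 2 counts in w1118 and 0 and 0 in mei-p26. miR-5-5p, miR-286-3p and miR-3-3p passed the filter on low counts only through wh7. There they had 96 and 92 counts, 102 and 89 counts, and 34 and 33 counts. miR-999-3p, of the pair of mir-999 and mir-4969, fell, at 9740.5 and 6232 CPM in w1118 and 3269 and 2858 CPM in mei-p26 (log2 fold change -1.38 ± 0.26, adjusted p = 0.000238), and the call held throughout the 18 alternatives. No row passed in the clusters of mir-275 and mir-305, mir-2a and mir-2b, mir-13b-1 to mir-2c, mir-92a and mir-92b, mir-279 and mir-996, or mir-998 and mir-11. Of their 22 tested rows 3 had an unadjusted p under 0.05 with edgeR, and 0 passed with DESeq2 or limma-voom. Log2 fold changes there ran from -1.09 for miR-998-5p to 0.82 for miR-11-5p.

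**Figure D4:**
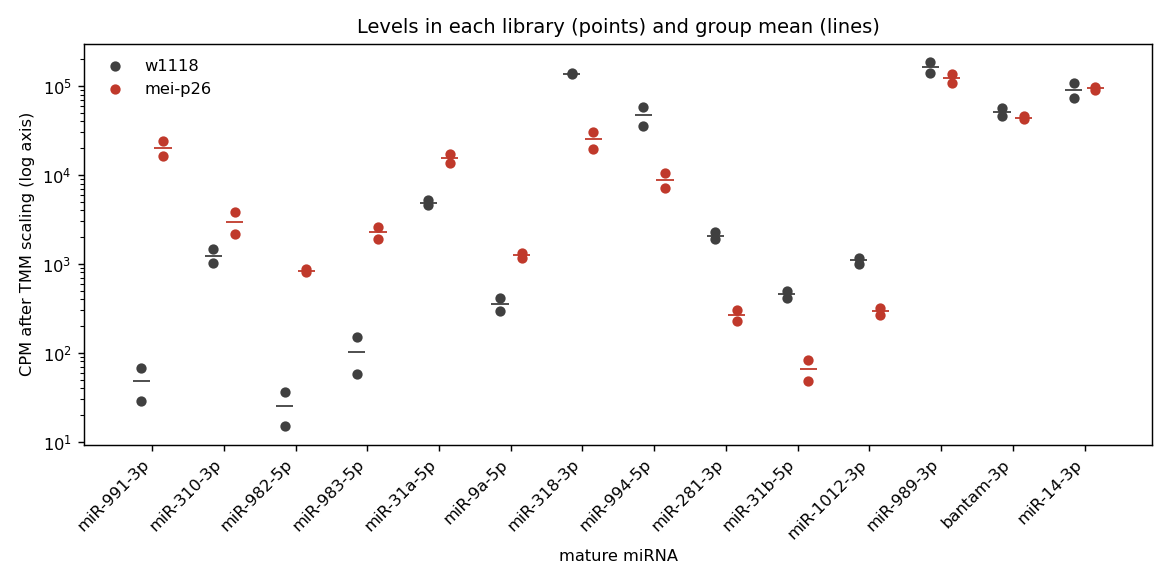
Points give the level of 14 miRNAs in each w1118 and mei-p26 library (CPM after TMM scaling, log axis) and short lines the mean of each group of 2. The mutant libraries stand above the controls in miR-991-3p, miR-310-3p, miR-982-5p, miR-983-5p, miR-31a-5p and miR-9a-5p and below them in miR-318-3p, miR-994-5p, miR-281-3p, miR-31b-5p and miR-1012-3p, while miR-14-3p overlaps.

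Members of 1 seed family did not always share a call. In the miR-31 family 1 paralog rose and the other fell. miR-31a-5p rose from 5162 and 4575 CPM in w1118 to 13541 and 17281 CPM in mei-p26 (log2 fold change 1.66 ± 0.24, adjusted p = 1.40e-05). miR-31b-5p, from a separate locus, fell from 501 and 409 CPM to 82.0 and 48.6 CPM (log2 fold change -2.80 ± 0.45, adjusted p = 5.71e-05). Reads of such close paralogs may be divided between them by the authors' counting, and the family summed to 5662 and 4984 CPM in w1118 and 13624 and 17329.9 CPM in mei-p26, led by miR-31a-5p in all 4 libraries. The passenger arm miR-31a-3p also rose (log2 fold change 1.23 ± 0.43, adjusted p = 0.0335), a call retained in 11 of 18 alternatives but missed without mei-p26 replicate 2, wh7 replicate 1, wh7 replicate 2 or w1118 replicate 1, where the adjusted p reached 0.225.

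In the miR-9 family, miR-9a-5p, which is known to keep sense organ precursors to their right number, rose from 411 and 294 CPM to 1177 and 1325 CPM (log2 fold change 1.83 ± 0.35, adjusted p = 0.000306), while its abundant paralogs miR-9b-5p and miR-9c-5p had negative values that did not pass (adjusted p = 0.227 and 0.0605). The family summed to 128306 and 78255 CPM in w1118 and 83415 and 61574 CPM in mei-p26, with overlapping groups. In the miR-92 family, miR-310-3p, miR-311-3p and miR-312-3p rose, and their seed partners at another locus did not pass. miR-92a-3p was at 5147 and 6003 CPM in w1118 and 4935 and 3784 CPM in mei-p26 (log2 fold change -0.35 ± 0.25, adjusted p = 0.278) and miR-92b-3p at 179 and 172 CPM in w1118 and 103 and 83.3 CPM in mei-p26 (log2 fold change -0.92 ± 0.51, adjusted p = 0.169). Summed over its 6 members the family stood at 11974 and 15354 CPM in w1118 and 22718 and 15596 CPM in mei-p26, with mei-p26 replicate 2 close to the higher control. The difference between paralogs was not tested.

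miR-276a-3p passed, at 30521 and 46436 CPM in w1118 and 51241 and 75293 CPM in mei-p26 (log2 fold change 0.72 ± 0.26, adjusted p = 0.0365), and its rare paralog miR-276b-3p did not (log2 fold change -0.35 ± 0.57, adjusted p = 0.682). The call of miR-276a-3p was retained in 8 of 18 alternatives but missed without mei-p26 replicate 2, wh7 replicate 1, wh7 replicate 2 or w1118 replicate 1, where the adjusted p reached 0.354. That call was also missed with RLE and upper-quartile scaling, with DESeq2 and in the fit of only the 4 libraries compared. The rows of miR-276a-5p and miR-276b-5p held the same counts, so those arms cannot be told apart. In the miR-2 family, whose members repress pro-apoptotic genes, 0 of 11 tested rows passed with edgeR, 0 were at an unadjusted p under 0.05, and 0 passed with DESeq2 or limma-voom. miR-11-3p had 0.38 ± 0.22, miR-2b-3p 0.34 ± 0.24 on its first row and miR-13b-3p -0.14 ± 0.24, whose sign turned with total-count scaling. The family took 3.90% and 4.76% of counts in w1118 and 6.35% and 5.60% in mei-p26. miR-318-3p makes up nearly all of the family it shares with miR-3-3p and miR-309-3p, whose sum was 135059 and 140705 CPM in w1118 and 30508 and 19484 CPM in mei-p26. That seed was hence carried by fewer counts in the mutant libraries, at 2.25% to 3.24% of counts against 11.8% to 13.6%.

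**Figure D5:**
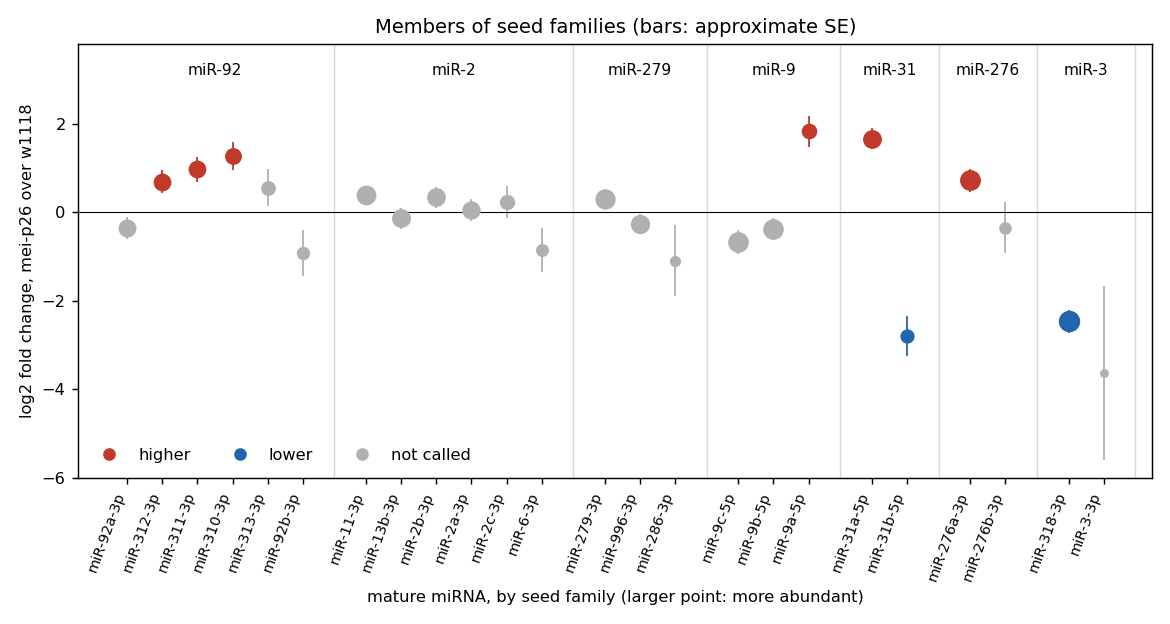
Log2 fold changes of mei-p26 over w1118 (vertical axis, bars for the approximate SE) are plotted for tested members of 7 seed families, 1 row per mature miRNA, with larger points for more abundant miRNAs and colours for calls. miR-31a-5p and miR-31b-5p lie on opposite sides of 0, miR-9a-5p lies above its paralogs, and the members of the miR-2 family run from -0.85 to 0.38.

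Wherever both arms of a hairpin passed, they went the same way. Both arms were tested for 53 precursors, and their values had the same sign in 34 and opposite signs in 19. In 14 precursors both arms passed, all 14 in the same direction, and 0 had calls in opposite directions. For mir-303, mir-978, mir-982, mir-984 and mir-992, each arm passed the filter on low counts only through the group where it was high. Opposite calls were thus not possible there. In 7 precursors 1 arm passed. The arms of 3 of these, mir-7, mir-184 and mir-276a, differed in sign. The ratio of the 5p to the 3p count, tested with limma in 50 precursors with enough counts on each arm, passed in 1 (2%), and 8 had an unadjusted p under 0.05. The precursor was mir-991, with a log2 ratio of -2.82 in w1118 and -7.28 in mei-p26 (adjusted p = 0.00194). Its control value rests on 0 of 13 counts from the 5p arm over both w1118 libraries, which allows a 5p share of up to 23.1%, and on the pseudocount of 1. The 5p share in mei-p26 was 0.746% (exact Clopper-Pearson interval 0.542% to 1.00%) and 0.513% (0.329% to 0.762%), which lies within that limit, so a shift between the arms of mir-991 was not detectable at the depth of the controls. Without mei-p26 replicate 1 or mei-p26 replicate 2 the count was 0, and without w1118 replicate 2 it was 4.

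Of the regulators known from the germline (bantam, miR-7, miR-184, miR-278 and miR-34), 2 of 9 tested rows were higher and 1 lower (33.3% called, near the 34% of all rows), with a median of 0.22 beside 0.08 for all rows. miR-7-5p, known for a role in germline stem cell division, was at 17621 and 13518 CPM in w1118 and 10986 and 9171 CPM in mei-p26 (log2 fold change -0.63 ± 0.23, adjusted p = 0.0440), a call retained in 10 of 18 alternatives but missed without mei-p26 replicate 2, wh7 replicate 1, wh7 replicate 2 or w1118 replicate 1, where the adjusted p reached 0.366. bantam-3p, which promotes growth and the maintenance of germline stem cells, was at 56194 and 46378 CPM in w1118 and 45781 and 42360.4 CPM in mei-p26 (adjusted p = 0.477). miR-184-3p, needed at several steps of egg development, was at 18062 and 11654 CPM in w1118 and 10736 and 10132 CPM in mei-p26 (adjusted p = 0.114), and its passenger arm miR-184-5p passed at 217 and 545 CPM in w1118 and 570.2 and 1256 CPM in mei-p26 (log2 fold change 1.26 ± 0.44, adjusted p = 0.0341), a call retained in 10 of 18 alternatives but missed without mei-p26 replicate 2, wh7 replicate 1 or w1118 replicate 1, where the adjusted p reached 0.462. miR-278-3p had 0.22 ± 0.29 (adjusted p = 0.579).

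miR-1-3p, the muscle miRNA, rose from 16829 and 10886 CPM in w1118 to 22575 and 27355 CPM in mei-p26 (log2 fold change 0.85 ± 0.25, adjusted p = 0.0106), and its call was retained in 14 of 18 alternatives but missed without mei-p26 replicate 2, wh7 replicate 1 or w1118 replicate 2, where the adjusted p reached 0.353. Its 5p arm, miR-1-5p, did not pass (log2 fold change 1.38 ± 0.70, adjusted p = 0.132). The other muscle marker, miR-133, had at most 3 counts in a library on its 3p arm. The muscle list summed to 16874 and 11001 CPM in w1118 and 22653 and 27629 CPM in mei-p26, and its part in the other results was not tested. Nervous system markers (miR-124, miR-137, miR-210 and miR-219) were at or near 0, with 1 and 2 counts in w1118 and 7 and 3 in mei-p26 over 8 rows, 5 of which had 0 counts in all 4 libraries.

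Mirtrons, spliced introns that fold into hairpins and bypass the enzyme Drosha, held 7 tested rows, of which 3 were lower and 1 higher, beside 12.7% and 21.3% of all rows, with a median of -0.58 beside 0.08. Both arms of mir-1012 fell, miR-1012-3p at 1008 and 1176 CPM in w1118 and 320.0 and 264 CPM in mei-p26 (log2 fold change -1.90 ± 0.32, adjusted p = 8.86e-05) and miR-1012-5p at 515 and 473 CPM in w1118 and 152 and 149 CPM in mei-p26 (log2 fold change -1.71 ± 0.39, adjusted p = 0.00153). miR-1009-3p fell as well, at 329 and 366 CPM in w1118 and 135 and 114 CPM in mei-p26 (log2 fold change -1.47 ± 0.45, adjusted p = 0.0139), a call retained in 16 of 17 alternatives but missed without mei-p26 replicate 2, where the adjusted p reached 0.0698. miR-1007-3p was the mirtron that rose, with 2 and 1 counts in w1118 and 14 and 17 in mei-p26 and a ratio of 5.31 (95% counting interval 1.66 to 27.1). That row passed the filter on low counts only through mei-p26 and could not have been called lower. Its adjusted p was 0.0449, a call retained in 4 of 16 alternatives and in no fit that left out 1 of the 6 libraries, where the adjusted p reached 0.283 or, without mei-p26 replicate 2, the row did not reach the filter. Below the threshold, miR-1003-3p had 0.96 ± 0.40, miR-1006-3p -0.58 ± 0.31 and miR-1010-3p -0.43 ± 0.40 (adjusted p = 0.0749, 0.152 and 0.425). The list summed to 4041 and 4346 CPM in w1118 and 2506 and 2681 CPM in mei-p26, with the groups apart.

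The calls that remain came from hairpins outside clusters. Apart from miR-274-5p they were named after their values were seen, to account for every call. Among the rises, miR-274-5p had 1 and 0 counts in w1118 and 26 and 56 in mei-p26, a ratio of 42.1 (95% counting interval 7.35 to 1684), and passed whichever library was left out. miR-252-5p had 1 and 0 counts in w1118 and 20 and 22 in mei-p26, a ratio of 21.6 (95% counting interval 3.67 to 872), with a call retained in 16 of 17 alternatives but missed without w1118 replicate 2, where the adjusted p reached 0.0735. miR-316-5p was at 8015 and 7049.6 CPM in w1118 and 12561 and 17215 CPM in mei-p26 (log2 fold change 0.98 ± 0.24, adjusted p = 0.00245), a call retained in 15 of 18 alternatives but missed without mei-p26 replicate 2, wh7 replicate 1 or w1118 replicate 2, where the adjusted p reached 0.113. Its 3p arm was at 44.8 and 50.2 CPM in w1118 and 156 and 451 CPM in mei-p26 (log2 fold change 2.67 ± 0.62, adjusted p = 0.00170), a call retained in 15 of 17 alternatives but missed without mei-p26 replicate 2 or w1118 replicate 2, where the adjusted p reached 0.0673. miR-87-3p was at 44.8 and 28.7 CPM in w1118 and 283 and 69.4 CPM in mei-p26, with the mutant libraries far apart, and its call (adjusted p = 0.0201) was retained in 12 of 17 alternatives but missed without mei-p26 replicate 1, wh7 replicate 1 or w1118 replicate 2, where the adjusted p reached 0.403.

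Among the falls outside clusters, miR-986-5p was at 2136 and 1391 CPM in w1118 and 639.9 and 642 CPM in mei-p26 (log2 fold change -1.46 ± 0.31, adjusted p = 0.000787) and held under all 18 alternatives. The replicates of miR-282 lay far apart in both groups. miR-282-5p was at 15328 and 8986 CPM in w1118 and 2879.8 and 8953 CPM in mei-p26 (log2 fold change -1.04 ± 0.37, adjusted p = 0.0367) and miR-282-3p at 2278 and 846 CPM in w1118 and 222 and 978 CPM in mei-p26 (log2 fold change -1.37 ± 0.51, adjusted p = 0.0431). The higher mutant library lay just under the lower control in the 5p arm and above it in the 3p arm, the 1 called row whose groups overlapped. Each call was retained in 12 of 18 alternatives. Neither passed when replicate 1 of w1118, of wh7 or of mei-p26 was left out, where the adjusted p reached 0.248 for the 5p arm and 0.421 for the 3p arm.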

How the data were processed

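Ovary miRNA libraries came from a QIAseq kit, with ligated adaptors and a unique molecular identifier added at cDNA synthesis, per the labels' protocols. bcl2fastq 2.20, Trimmomatic and build BDGP5 are named in the submitters' processing notes. Not given in the sources used here were the aligner, the counter and the miRNA annotation. Collapsing of identifiers is not stated, so PCR copies may be counted as separate molecules. The deposited table holds whole-number counts for each pair of mature miRNA and precursor, headed as raw reads per the file headers, with w1118 columns headed W118. The 6 columns of normalised values per sample and the authors' comparisons were not used.

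Counts of all 6 libraries entered 1 fit in edgeR 4.0.16 (R 4.3.3), with TMM scaling (factors 0.877 to 1.16), filterByExpr at a minimum count of 10, and 3 residual degrees of freedom. The 150 rows tested held at least 99.9% of counts in each library. A row could pass the filter through its counts in a single group. If rare elsewhere, such a row could be called only towards that group. The SE was approximated as |log2 fold change| divided by √F. Ratios of 5p to 3p counts (pseudocount 1, at least 10 counts per arm on average) were tested with limma 3.58.1. Scripts were tested on simulated data. Sums over clusters, families and lists take 1 row per mature miRNA and have no test, since an exact permutation test of 2 libraries against 2 cannot go below p = 0.333. Clusters come from the Ensembl annotation of a later build (BDGP6), in which 254 of 256 precursors matched by name, 3 of them through a synonym, and which served for neighbours and chromosomes only. Seed families are textbook families matched by name, because no file used here holds miRNA sequences. Members and lists were chosen with earlier results of these data known. Named miRNAs are, by rule, the 12 largest changes in each direction among called rows without overlap between groups, the 10 most abundant rows of each group, all tested rows of clusters and families with at least 2 called miRNAs, hairpins whose arm ratio passed, and the 4 most abundant rows of each list. Any other miRNA was picked with its values in view. The fit was repeated with DESeq2 1.42.0 and with limma-voom, with scaling by RLE, by total counts, by the upper quartile and by TMM without the 10 most abundant rows, without the filter and with 1 that asks for a mean of 50 counts, with a replicate block, on the 4 libraries compared, on 1 row per mature miRNA, leaving out each of the 6 libraries, and at a threshold of 0.1. A lone library left in a group was assumed to vary like the other groups.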

Additional observations from a re-analysis of the deposited data

How the results depend on the processing

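The count of 51 calls stayed within 1.5 times of its value under all alternatives except a mean count of at least 50, which tests 96 rows and gave 26 calls, 14 higher and 12 lower. Over the fits that left out 1 library, calls ran from 34 to 59, those higher from 20 to 32 and those lower from 14 to 32. DESeq2 gave 40, limma-voom 48, and the fit of only the 4 libraries compared 42, of 143 rows that then passed the filter. Of the 51 calls, 28 passed whichever library was left out, 27 were kept under every alternative that tested them, and 0 turned sign. The count of arm ratios, 1, was 0 with a mean of at least 50 on both arms and ran from 0 to 4 when 1 library was left out. No sign was seen that the same replicate number paired libraries, though this cannot exclude pairing. Deviations from the group means correlated across miRNAs with r = -0.06 for w1118 and mei-p26. The values were -0.19 for w1118 and wh7 and 0.13 for wh7 and mei-p26. A replicate block gave 50 calls (30 higher, 20 lower) and 1 arm ratio.

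Signs turned only for 8 of 81 miRNA rows examined, none of them called. With total-count scaling bantam-3p went to 0.0546, let-7-3p to 0.12, both rows of miR-13b-3p to 0.12, miR-306-5p to 0.0684 and miR-962-5p to 0.27. miR-14-3p went to -0.0333 with RLE scaling and with DESeq2 and to -0.16 with upper-quartile scaling, miR-100-5p to -0.13 with upper-quartile scaling and miR-962-5p to 0.00835 with limma-voom. When 1 library was left out, miR-14-3p ran from -0.21 to 0.0734, miR-100-5p from -0.44 to 0.39, miR-962-5p from -0.59 to 0.31 and let-7-3p from -1.02 to 0.34. Except for the smaller number of rows or libraries in a fit, the cause of these changes was not tested. Library totals limit what can be said of miRNAs under about 22.4 CPM.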

Other observations

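Rows too rare to test gave a further view of what each group expressed. Of the 119 such rows, 47 had counts in mei-p26 libraries only, 22 in w1118 libraries only and 50 in both groups, with at most 19 counts in any library. The mei-p26 libraries were the deeper ones, so more rows seen there alone need not mean more miRNAs expressed. Of these rows, 15 were seen in both mei-p26 libraries and in neither w1118 library, and 6 in both w1118 libraries and in neither mei-p26 library. Among the former, miR-2498-3p had 7 and 8 counts, from the hairpin whose 5p arm rose. Arms of called clusters were also found below the filter. miR-983-3p had 1 and 0 counts in w1118 and 12 and 19 in mei-p26, and miR-310-5p had 1 and 0 against 12 and 11. Among those seen in w1118 alone, miR-932-5p had 6 and 5 counts. These rows were named after their values were seen, and no test was made of them.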
